A study of Homo sapiens with 9 samples.

Results

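The 10 genes described here are the jaw patterning homeobox genes DLX1 to DLX6, MSX1, MSX2, BARX1 and LHX8. They were found by gene symbol among 25593 loci in each of 9 RNA sequencing tables. The libraries came from neural crest-like cells made from the established human embryonic stem cell line H9, and every culture was first differentiated for 6 days with 10 µM SB431542. SB431542 inhibits signalling by TGF-β, Activin and Nodal at their receptors. Crest-like cells were isolated by sorting and grown on fibronectin with 5% CO2 and 5% oxygen. In F_FSB, cells were grown with FGF2 and SB431542 for 4 passages and then with FGF2 alone for 3 more. In FSB, cells from the same split after 4 passages stayed in FGF2 with SB431542. In F, they were expanded in FGF2 alone. FGF2 was used at 5 to 10 ng/ml and SB431542 at 3 to 5 µM, and cells were harvested at passage 6 to 7. There were 3 libraries in each group. The growth protocol describes a sort for high CD271 and no CD73, whereas the cell type label gives both markers as positive. All cells derive from 1 line, and the design text calls the libraries of a group biological replicates without saying how the cultures were separated. P-values therefore measure the spread between these libraries only.

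DLX, MSX and BARX genes encode homeodomain transcription factors of the facial primordia. In vertebrate embryos, crest cells read their position in the pharyngeal arches partly as a nested code of DLX genes. DLX1 and DLX2 are used along the whole proximodistal axis, while DLX5 and DLX6 are restricted to the ventral part, downstream of endothelin and BMP signals. MSX1 and MSX2 act near the distal midline under BMP control, BARX1 marks the proximal territory of the molars and jaw joint, and LHX8 is an oral mesenchyme factor of teeth and palate, as described in mouse.

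In the deposited tables the levels are FPKM, fragments scaled to transcript length and library size, which allows levels of different genes to be compared per length. The tables hold no fragment counts. A rough relative depth put F_FSB replicate 2 lowest, at 60.05% of the highest library, and the other 8 libraries at 82.7% to 100%. The closest pair of libraries within a group was FSB replicates 1 and 2, with a median absolute difference of 0.105 on the log2(FPKM + 1) scale, and no tables were identical. The test took genes that reached 1 FPKM in 3 or more libraries, 13216 in all, among them 8 of the 10 homeobox genes. DLX3 and DLX4 stayed below 1 FPKM in every library and were not tested.

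The homeoboxes of DLX5 and DLX6 and of MSX1 and MSX2 are shown because the results turn on how the members of these pairs differ, and because reads of near-identical stretches could be shared. A homeobox is the stretch of coding sequence for the DNA-binding homeodomain. Each is 180 bases long here, written 5′ to 3′ on the coding strand, and capitals mark the bases for the recognition helix, residues 42 to 58 of the homeodomain. On GRCh37 (GENCODE 44 models), DLX5 lies at chr7:96650330-96651628 on the minus strand and DLX6 at chr7:96637012-96639155 on the plus strand. These spans run over exons 2 and 3, and the intron between them is left out. MSX1 at chr4:4864472-4864651 and MSX2 at chr5:174156206-174156385, both on the plus strand, each lie within exon 2.
DLX5: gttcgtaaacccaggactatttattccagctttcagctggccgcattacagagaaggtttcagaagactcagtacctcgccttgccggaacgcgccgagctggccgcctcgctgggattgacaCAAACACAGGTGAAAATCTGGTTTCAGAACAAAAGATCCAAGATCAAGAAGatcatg
DLX6: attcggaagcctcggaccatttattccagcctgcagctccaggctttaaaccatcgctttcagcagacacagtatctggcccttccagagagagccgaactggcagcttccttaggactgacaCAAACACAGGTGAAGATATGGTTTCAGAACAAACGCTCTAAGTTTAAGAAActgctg
MSX1: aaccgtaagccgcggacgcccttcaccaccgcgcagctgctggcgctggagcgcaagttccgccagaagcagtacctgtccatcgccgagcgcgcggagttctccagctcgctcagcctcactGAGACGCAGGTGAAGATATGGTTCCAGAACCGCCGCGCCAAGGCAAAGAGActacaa
MSX2: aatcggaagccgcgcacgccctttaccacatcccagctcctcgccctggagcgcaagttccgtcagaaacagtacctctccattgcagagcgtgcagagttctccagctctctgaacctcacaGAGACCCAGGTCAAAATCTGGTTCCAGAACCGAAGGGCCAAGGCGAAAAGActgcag
MSX1 and MSX2 were the same at 148 of 180 bases (82.2%) and DLX5 and DLX6 at 132 (73.3%). Over the whole coding sequences the longest identical run was 28 bases for the MSX pair and 19 for DLX5 and DLX6.

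DLX1 and DLX2, the pair used along the whole arch, were the only DLX genes above 1 FPKM in all 9 libraries. DLX1 (chromosome 2, 172950208 to 172954402) had 25.4, 43.3 and 31.3 FPKM in F_FSB, 17.8, 16.1 and 5.496 FPKM in FSB, and 57.2, 40.6 and 72.0 FPKM in F. Every FSB library lay below every F_FSB and F library, while F_FSB and F overlapped. Means were 33.4 ± 9.08 in F_FSB, 13.1 ± 6.65 in FSB and 56.6 ± 15.7 FPKM in F (SD, n = 3 each). DLX1 fell by 2.14 on the log2(FPKM + 1) scale in FSB against F (SE 0.41, limma BH-adjusted p = 0.00492). It rose in F_FSB against FSB (log2 change 1.39, SE 0.41; by limma, adjusted p = 0.0272), and this call was lost without F_FSB replicate 2 or without F_FSB replicate 3 (limma, BH-adjusted p = 0.0762 and 0.0589). Without FSB replicate 3, the lowest library, the log2 change was 0.91 and passed (limma, BH-adjusted p = 0.0414). DLX2 (chromosome 2, 172964166 to 172967478), 9.763 kb away, had 17.4, 23.2 and 14.3 FPKM in F_FSB, 27.1, 25.0 and 16.2 FPKM in FSB, and 28.9, 12.6 and 21.1 FPKM in F. The 3 groups overlapped, and DLX2 was called in no comparison (limma, BH-adjusted p = 0.477 for F_FSB minus FSB, 0.703 for FSB minus F and 0.902 for F_FSB minus F).

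The ratio of the pair did not overlap between FSB and the other media. DLX1 was 1.47, 1.86 and 2.19 times DLX2 in F_FSB, 0.654, 0.644 and 0.338 times in FSB, and 1.98, 3.23 and 3.42 times in F. DLX2 was thus the higher of the pair in each FSB library and the lower in each of the others. DLX2 was also the highest of the 10 genes in all 3 FSB libraries, whereas DLX1 or MSX2 led in F.

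**Figure D1:**
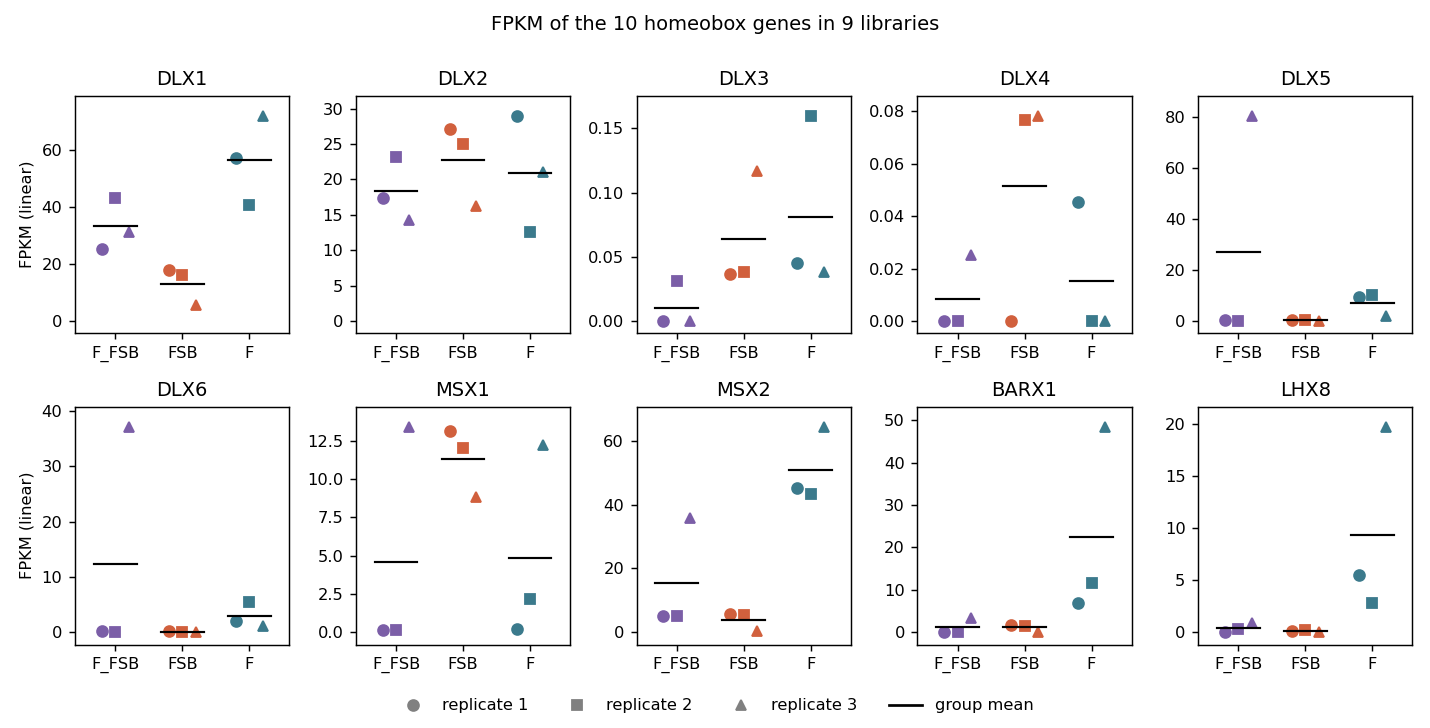
FPKM of the 10 genes on linear axes, one panel each, with F_FSB, FSB and F from left to right. Symbols are single libraries by replicate number and black lines are group means; DLX5 reached 80.5 FPKM in F_FSB replicate 3 and at most 10.2 FPKM in any other library.

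DLX5 and DLX6, the ventral pair, were low in most libraries and high in 1. DLX5 (chromosome 7, 96649702 to 96654143) had 0.213, 0.0612 and 80.5 FPKM in F_FSB, 0.324, 0.301 and 0.115 FPKM in FSB, and 9.47, 10.2 and 1.99 FPKM in F. DLX6 (chromosome 7, 96635290 to 96640352) had 0.150, 0 and 37.1 FPKM in F_FSB, 0.145, 0.123 and 0.0140 FPKM in FSB, and 2.06, 5.43 and 1.11 FPKM in F. For both genes, all F libraries lay above all FSB libraries, and F_FSB replicate 3 lay above all F libraries while replicates 1 and 2 were at or below 0.213 FPKM. The group means of F_FSB, 26.9 ± 46.4 FPKM for DLX5 and 12.4 ± 21.4 FPKM for DLX6 (SD, n = 3), therefore describe no library of the group. DLX5 lay above 94.4% of the tested genes in F_FSB replicate 3 but above 1.052% and 1.135% of them in replicates 1 and 2.

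Neither gene passed the test in FSB against F with all 9 libraries in the fit (DLX5 log2 change -2.50, SE 1.51, and DLX6 -1.67, SE 1.25; limma, BH-adjusted p = 0.214 and 0.317). Without F_FSB replicate 3 the same log2 changes passed (limma, BH-adjusted p = 0.00576 for DLX5 and 0.0108 for DLX6), and they also passed with only the FSB and F libraries in the fit (limma, BH-adjusted p = 0.00990 and 0.0169). The spread of F_FSB replicate 3 enters the error shared by all groups. Neither gene would have been tested without the F libraries, where all values were at 1 FPKM or more, with or without F_FSB replicate 3. The direction in FSB against F was thus set in part by the filter. These passes describe genes that had to differ. In the 4 libraries with both genes at 1 FPKM or more, DLX5 was 2.17 times DLX6 in F_FSB replicate 3 and 4.59, 1.88 and 1.79 times DLX6 in F. Together the pair made up 0.841%, 0.0919% and 72.0% of the summed FPKM of the 6 DLX genes in F_FSB, 1.03%, 1.02% and 0.583% in FSB, and 11.8%, 22.7% and 3.23% in F. An antisense gene, DLX6-AS1, spans DLX6. It was listed at 0, 0.284 and 3.93 FPKM in F_FSB, at 0 in all FSB libraries and at 0.152, 0.268 and 0.129 FPKM in F. No source used here says whether counting used the strand, so reads of DLX6 and DLX6-AS1 may not be separated.

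DLX3 and DLX4, the third DLX pair, which act in branchial ectoderm, placenta and tooth, were near 0 throughout. DLX3 (chromosome 17, 48067369 to 48072588) was at most 0.0311 FPKM in F_FSB, 0.117 FPKM in FSB and 0.1596 FPKM in F. DLX4 (chromosome 17, 48046562 to 48052323) did not exceed 0.0781 FPKM in any library.

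The MSX genes, BMP-responsive repressors, differed in the medium in which their means were highest, FSB for MSX1 and F for MSX2. MSX1 (chromosome 4, 4861392 to 4865663) had 0.150, 0.129 and 13.4 FPKM in F_FSB, 13.1, 11.99 and 8.85 FPKM in FSB, and 0.188, 2.18 and 12.2 FPKM in F. The FSB libraries lay close together, while 1 library of F_FSB and 1 of F, both numbered 3, lay in or above their range and the others lay below it. No comparison of MSX1 passed the test with all libraries (limma, BH-adjusted p = 0.148 for F_FSB minus FSB, 0.246 for FSB minus F and 0.902 for F_FSB minus F). Without F_FSB replicate 3, MSX1 was lower in F_FSB than in FSB (log2 change -3.42, limma, BH-adjusted p = 0.0202). In that fit MSX1 passed the filter only with the FSB libraries counted, where it is high, so its direction was set in part by the filter.

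MSX2 (chromosome 5, 174151575 to 174157902) had 4.97, 5.18 and 35.7 FPKM in F_FSB, 5.73, 5.42 and 0.384 FPKM in FSB, and 45.2, 43.2 and 64.2 FPKM in F. Each F library lay above each F_FSB and FSB library, and F_FSB replicates 1 and 2 lay between the values of FSB. MSX2 fell by 3.71 in FSB against F (SE 0.81, limma BH-adjusted p = 0.00844). In F_FSB against FSB it did not pass (log2 change 1.501, SE 0.81, limma, BH-adjusted p = 0.173). That change was 0.75 without FSB replicate 3 and 0.64 without F_FSB replicate 3. MSX2 was 33.3, 40.1 and 2.67 times MSX1 in F_FSB, 0.436, 0.452 and 0.0434 times in FSB, and 241, 19.8 and 5.26 times in F. MSX1 exceeded MSX2 in the FSB libraries and in no other library. MSX2P1, a pseudogene copy of MSX2 with 92.35% identity over 771 aligned bases, stood at 1.07% to 3.10% of MSX2 in each library, and no source used here says how reads shared by both were counted.

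**Figure D2:**
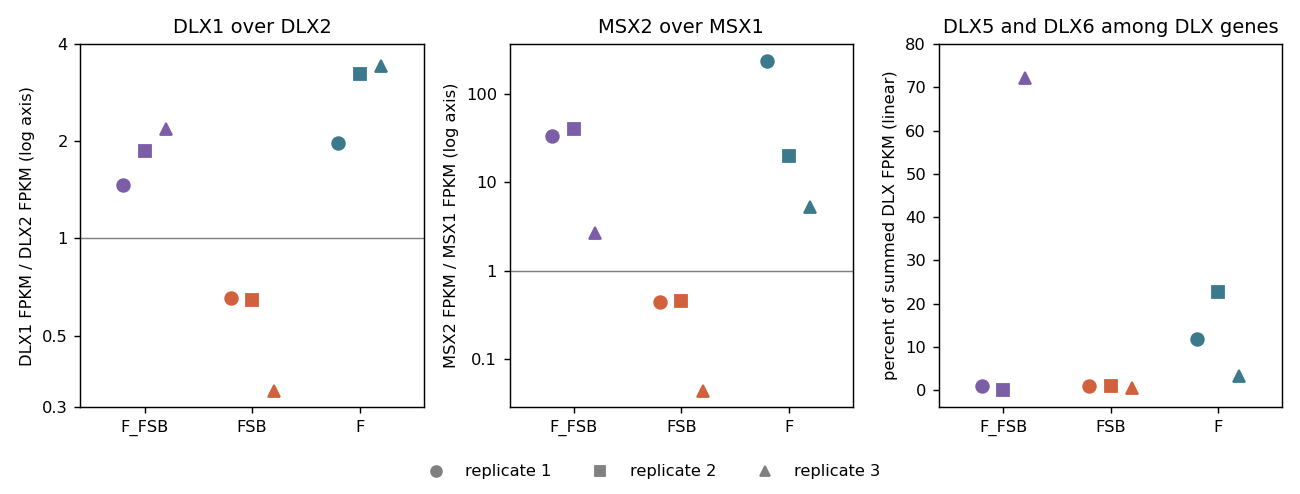
Ratio of DLX1 to DLX2 and of MSX2 to MSX1 in FPKM (log axes, grey line at 1) and the percent of summed DLX FPKM held by DLX5 and DLX6 (linear axis). Symbols are single libraries; both ratios lie below 1 in FSB and above 1 in F_FSB and F, and the DLX5 and DLX6 share reaches 72.0% in F_FSB replicate 3.

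BARX1 and LHX8, markers of oral and dental mesenchyme, were highest in F. BARX1 (chromosome 9, 96713909 to 96717608) was listed at 0 in F_FSB replicates 1 and 2 and had 3.38 FPKM in replicate 3. It had 1.62, 1.58 and 0.146 FPKM in FSB, and 7.00, 11.7 and 48.3 FPKM in F. Every F library lay above every other library, but the F libraries themselves ranged widely. BARX1 fell by 3.11 in FSB against F (SE 0.80, limma BH-adjusted p = 0.0156). That call was lost with a pseudocount of 0.1 or 0.01 (limma, BH-adjusted p = 0.0534 and 0.141) and without FSB replicate 3 (limma, BH-adjusted p = 0.0526).

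LHX8 (chromosome 1, 75594119 to 75627218) had 0.0479, 0.310 and 0.924 FPKM in F_FSB, 0.0811, 0.190 and 0 FPKM in FSB, and 5.45, 2.80 and 19.6 FPKM in F. It reached 1 FPKM in the 3 F libraries and in no other. LHX8 therefore entered the test only through F, and its call in FSB against F (log2 change -2.87, SE 0.55; by limma, adjusted p = 0.00455) is a description of a gene that had to differ.

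In FSB against F, DLX1, MSX2, BARX1 and LHX8 were the 4 genes of the 8 tested that fell and none rose, where 13.4% of all tested genes fell, 28.5% rose and 41.9% changed in either direction (limma with BH adjustment at 0.05). The libraries did not overlap for 6 of the 8, all lower in FSB, where 19.2% of tested genes were lower without overlap, 38.7% higher and 57.9% either. The median log2 change was -2.32 for the 8 genes and 0.14 for all tested genes. DLX5, DLX6 and LHX8 would not have been tested without the F libraries, so these counts and the median lean towards genes high in F and support nothing on their own. The share of higher among called genes was 68.0% with the values as deposited, 49.6% after scaling by median ratios, 53.2% after quantile normalization and 61.6% after scaling to the same sum. The 4 calls held under each of these scalings, with log2 changes after scaling by median ratios of -2.28 for DLX1, -3.82 for MSX2, -3.20 for BARX1 and -2.92 for LHX8.

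In F_FSB against FSB, DLX1 was the 1 gene of 8 that rose, and none fell, where 13.7% of tested genes rose, 28.2% fell and 41.8% changed in either direction. DLX1 was also the 1 gene whose libraries did not overlap, where 19.2% of tested genes were higher without overlap, 36.6% lower and 55.8% either. The median log2 change was 0.87 for the 8 genes and -0.13 for all tested genes. DLX5 and DLX6 (log2 changes 1.92 and 1.69) changed sign without F_FSB replicate 3, so the median of the 8 depends in part on that library. DLX5, DLX6 and LHX8 would not have been tested without the F libraries, and this median supports nothing on its own. The share of higher among called genes was 32.7% as deposited, 49.8% after scaling by median ratios, 45.7% after quantile normalization and 25.4% after scaling to the same sum, and DLX1 passed under each. The call of DLX1 was lost with culture number as a replicate block (limma, BH-adjusted p = 0.0515).

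In F_FSB against F, none of the 8 genes passed, where 0.00757% of tested genes (1 gene) did. BARX1, LHX8 and MSX2 had an unadjusted p under 0.05 in limma's fit (0.00268, 0.00160 and 0.0262), as had 1195 of all 13216 tested genes. Their adjusted p-values were 0.419, 0.375 and 0.529 (limma, BH). LHX8 entered the test only through F, so its values here also describe a gene that had to differ. The log2 changes of BARX1, LHX8 and MSX2 were -3.39, -2.53 and -2.21. For these 3 genes alone F_FSB did not overlap F, all lower, where 6.76% of tested genes were lower without overlap, 6.28% higher and 13% either. DLX5, DLX6 and LHX8 would not have been tested without the F libraries, so these counts lean towards genes high in F and support nothing on their own. A p above the threshold does not show that these levels were alike. The comparisons share libraries with each other and are not independent.

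**Figure D3:**
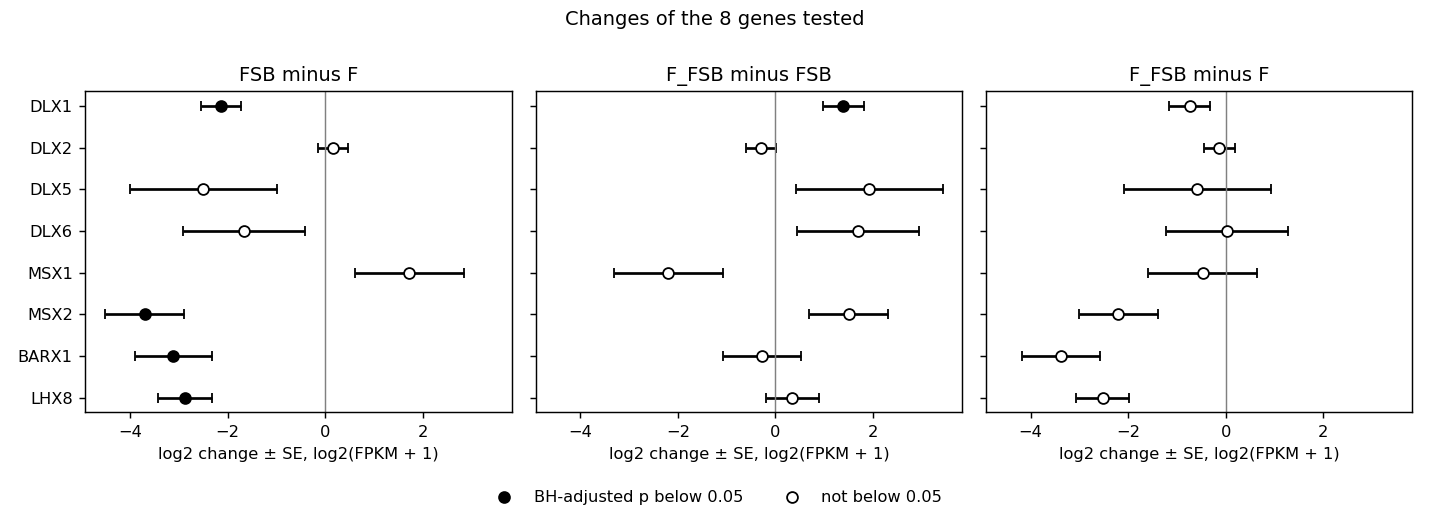
Log2 change on the log2(FPKM + 1) scale with its SE for the 8 tested genes, with 1 panel per comparison. Filled points passed a BH-adjusted p of 0.05; DLX1, MSX2, BARX1 and LHX8 are filled in FSB minus F, DLX1 in F_FSB minus FSB and none in F_FSB minus F.

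F_FSB replicate 3 stood apart in these genes. Among 12249 tested genes with a plain symbol, DLX5 had the largest excess in this library over the higher of the other 2 F_FSB libraries, 6.07 on the log2(FPKM + 1) scale. DLX6 ranked 3 with 5.05 and MSX1 ranked 6 with 3.64. Among all tested genes, whatever their symbol, DLX5, DLX6 and MSX1 ranked 6, 9 and 15. Summed over the 10 genes, the level was 48.3, 72.2 and 217 FPKM in F_FSB, 66.0, 60.8 and 31.4 FPKM in FSB, and 156, 129 and 241 FPKM in F. The number of the 10 genes at 1 FPKM or more was 3, 3 and 7 in F_FSB, 5, 5 and 3 in FSB, and 7, 8 and 8 in F. Over all tested genes, 20 lay at least 3 log2 units above both other libraries of the group in this library, against 9 and 31 in F_FSB replicates 1 and 2.

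Other arch genes were high in the same library, and they were chosen after their values were seen. HAND2, a distal arch factor that acts downstream of DLX5 and DLX6 in mouse, had 0.0480, 0 and 20.2 FPKM in F_FSB and at most 0.424 FPKM elsewhere. PITX1, a mandibular and hindlimb factor, had 0.0715, 0 and 40.8 FPKM in F_FSB and at most 1.45 FPKM elsewhere. GSC, a mandibular homeobox gene, had 0.158, 0 and 2.45 FPKM in F_FSB and at most 0.419 FPKM elsewhere. None of the 3 passed the filter. TFAP2B, a crest factor, had 19.7, 20.4 and 1.87 FPKM in F_FSB, 9.63, 8.64 and 7.40 FPKM in FSB, and 16.4, 1.25 and 1.86 FPKM in F, so F_FSB replicate 3 lay near F replicates 2 and 3. In bulk libraries, a larger share of cells with a gene and more RNA of it per cell cannot be told apart.

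Endothelin and BMP genes that act upstream of the DLX and MSX genes were called in both directions, with shares to be read against the 28.5% higher and 13.4% lower of all tested genes in FSB against F and the 13.7% and 28.2% in F_FSB against FSB. Of 24 mandibular signals and receptors, 21 were tested; 6 rose and 6 fell in FSB against F, and 5 rose and 6 fell in F_FSB against FSB. EDN1, the endothelin ligand, had means of 2.83 ± 1.53 in F_FSB, 6.00 ± 1.02 in FSB and 1.08 ± 0.859 FPKM in F, and rose in FSB against F (log2 change 1.83, limma, BH-adjusted p = 0.00638). Its receptor EDNRA was at 95.2 ± 27.4 FPKM in F_FSB, 43.7 ± 25.6 FPKM in FSB and 117 ± 24.2 FPKM in F, and fell by 1.53 in FSB against F (limma, BH-adjusted p = 0.0133). MEF2C, which relays endothelin signals in crest, rose in FSB against F (log2 change 3.16, limma, BH-adjusted p = 0.000256) and fell by 3.15 in F_FSB against FSB (limma, BH-adjusted p = 0.000269). Among the BMP ligands, BMP7 rose and BMP4 fell in FSB against F (log2 changes 2.82 and -1.28; by limma, adjusted p = 1.92e-05 and 0.0245). BMP7 reached 1 FPKM only in the 3 FSB libraries and was tested only through them, so its call describes a gene that had to differ. EDN1, EDNRA and BMP4 were named after their values were seen. Of 11 BMP response genes, 2 rose and 1 fell in FSB against F: ID3 and ATOH8 rose, by 0.88 and 0.57, and BMPER, a secreted BMP modulator, fell by 2.70 (limma, BH-adjusted p = 0.00161, 0.0278 and 0.00624). BMPER entered the test only through the F libraries, where it is high, so its direction was set in part by the filter.

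Other arch transcription factors were also called in both directions. Of 40, 25 were tested. In FSB against F, 6 rose and 7 fell (28.5% and 13.4% of all tested genes). In F_FSB against FSB, 3 rose and 8 fell (13.7% and 28.2% of all tested genes). ALX4, which rose in FSB against F, would not have been tested without the FSB libraries. MEIS1, OSR2 and PAX9, which fell, would not have been tested without the F libraries. They were named after their values were seen, and the filter set these counts in part. TWIST1, a crest and mesenchyme factor, rose and NR2F2, a nuclear receptor, fell in FSB against F (log2 changes 1.74 and -0.72; by limma, adjusted p = 0.000954 and 0.00252). In F_FSB against F, no tested gene of the signal, arch factor or BMP response lists passed in limma. Of 21, 25 and 11 tested, 8, 4 and 0 had an unadjusted p under 0.05, as had 1195 of all 13216 tested genes. Of 14 bone and tooth mineralisation genes 4 were tested, and PTH1R, the parathyroid hormone receptor, rose in FSB against F (log2 change 1.59, limma, BH-adjusted p = 0.0391).

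**Figure D4:**
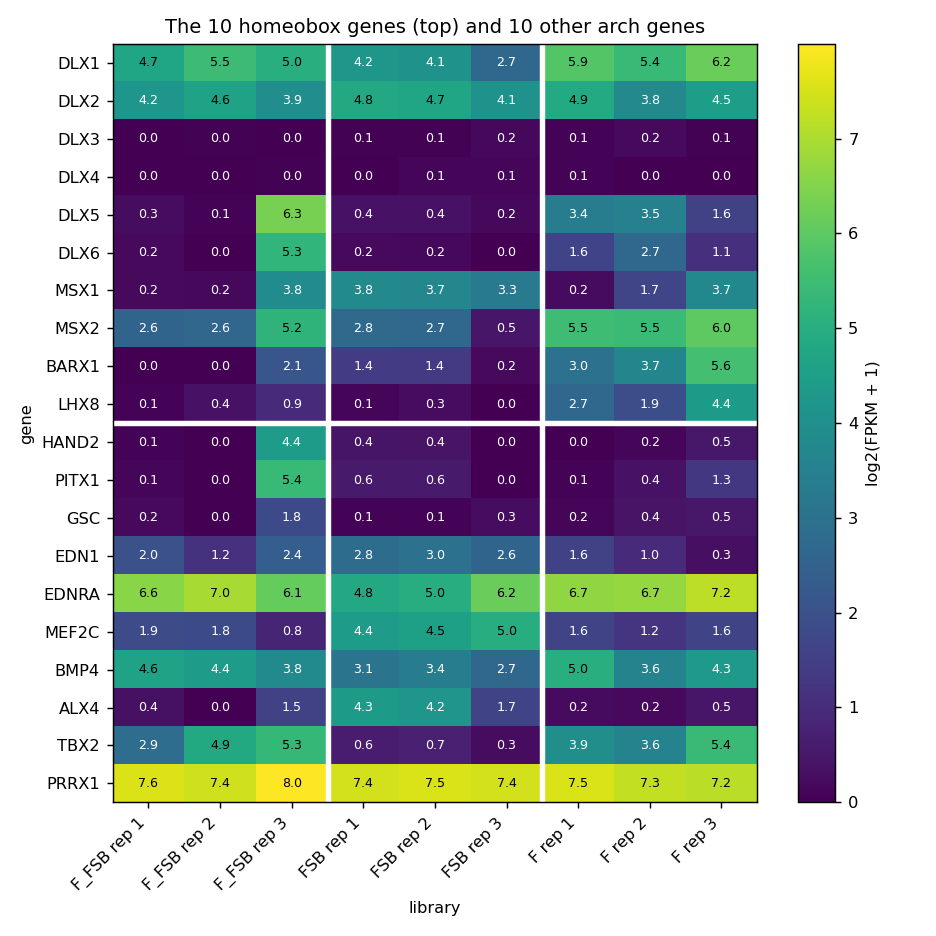
Heat map of log2(FPKM + 1), printed in each cell to 1 decimal, for the 10 homeobox genes above the white line and 10 other arch genes below it, chosen after their values were seen. Columns are libraries of F_FSB, FSB and F; DLX5, DLX6, HAND2 and PITX1 are bright in F_FSB replicate 3.

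Marker lists of the labelled and of other cell types also differed between media. Summed neural crest markers ran from 141 to 166 FPKM in F_FSB, 429 to 465 FPKM in FSB and 169 to 199 FPKM in F. Of 7 tested, 4 were higher and 0 lower in FSB against F, where 28.5% of all tested genes were higher and 13.4% lower. The others tested, SOX9, SNAI2 and TFAP2B, did not pass. The same background shares apply to the other marker lists in FSB against F. NGFR, which encodes the sort marker CD271, averaged 4.89 ± 3.01 FPKM in F_FSB, 120 ± 15.3 FPKM in FSB and 20.0 ± 20.4 FPKM in F. SOX10, a migratory crest marker, was at most 1.69 FPKM in any library. Summed second arch and caudal HOX genes ran from 1.14 to 4.89 FPKM in F_FSB, 0.122 to 2.08 FPKM in FSB and 13.2 to 54.4 FPKM in F. HOXA2, HOXB2 and HOXA3 were lower in FSB than in F (log2 changes -2.55, -1.85 and -3.24), but all 3 entered the test only through the F libraries, so these values are a description. Forebrain interneuron markers, which matter because DLX1, DLX2, DLX5, DLX6 and LHX8 also act there, did not exceed 0.809 FPKM, and NKX2-1 was listed at 0 in all 9 libraries. Limb position genes, where DLX5, DLX6, MSX1 and MSX2 also act, did not exceed 0.144 FPKM. Surface ectoderm markers summed to 3.00 to 5.34 FPKM in F_FSB, 12.9 to 15.1 FPKM in FSB and 0.748 to 2.33 FPKM in F, with CDH1 and TP63 below 0.1 FPKM throughout. Of the 3 tested, all higher in FSB than in F, TFAP2C and CLDN6 were tested only through the FSB libraries. Pluripotent cell markers summed to 1.4996 to 4.127 FPKM in F_FSB, 82.4 to 96.5 FPKM in FSB and 1.36 to 6.33 FPKM in F. The FSB sums were mostly LIN28A, which was tested only through the FSB libraries, while POU5F1 and NANOG did not exceed 1.15 and 0.247 FPKM. DPPA4 reached 1 FPKM in all 9 libraries. Its means were 2.62 ± 1.36 in F_FSB, 8.37 ± 2.05 in FSB and 2.94 ± 2.76 FPKM in F. For FSB minus F, DPPA4 passed with a log2 change of 1.44 (limma, BH-adjusted p = 0.0352). For F_FSB minus FSB it passed with -1.41 (limma, BH-adjusted p = 0.0370). Of 3 endothelial markers tested, CDH5 and TIE1 were higher in FSB than in F but were tested only through the FSB libraries, TEK fell, and none exceeded 4.20 FPKM. Of the Schwann cell and melanocyte markers, PMEL was higher in FSB than in F but was tested only through the FSB libraries. The 1 tested marker of paraxial mesoderm, MEOX1, did not pass and reached 43.2 FPKM, and leukocyte markers did not exceed 0.106 FPKM. The part of these markers in the levels of the homeobox genes was not tested.

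The nearest tested neighbours of the homeobox genes gave mixed results. CYTL1, 150.649 kb from MSX1, fell by 2.39 in FSB against F and rose in F_FSB against FSB (log2 change 2.76; limma, BH-adjusted p = 0.00370 and 0.00192), opposite in sign to the fitted change of MSX1, which did not pass. ITGA6, 324.835 kb from DLX2, rose in FSB against F and fell in F_FSB against FSB (log2 changes 2.73 and -2.32; by limma, adjusted p = 0.000364 and 0.000685). ACN9 beside DLX5, STX18 beside MSX1 and KAT7 beside DLX3 and DLX4 were also higher in FSB than in F and lower in F_FSB than in FSB, with log2 changes in FSB against F of 0.78, 0.76 and 0.38 (limma, BH-adjusted p = 0.00776, 0.0117 and 0.00591). ITGA3, on the other side of DLX3, rose in FSB against F (limma, BH-adjusted p = 0.0459) and did not pass in F_FSB against FSB (limma, BH-adjusted p = 0.994). METAP1D, 4.62 kb from DLX1, passed in neither comparison (limma, BH-adjusted p = 0.226 and 0.610), nor did SHFM1 beside DLX6 or the neighbours of MSX2 (CPEB4 and SFXN1), BARX1 (PHF2 and PTPDC1) and LHX8 (FPGT and SLC44A5). Among 8535 genes with a mean of at least 5 FPKM, the genes most alike over the 9 libraries, by Pearson r of log2(FPKM + 1), were FAM162A for DLX1 (r = 0.955), CLOCK for DLX2 (0.898), GAB2 for MSX1 (0.955), KDELC2 for MSX2 (0.958), UBFD1 for BARX1 (0.936) and NPM3 for LHX8 (0.926). PTRF was the most alike for both DLX5 (0.952) and DLX6 (0.975). These are descriptions over libraries that share their medium within a group.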

How the data were processed

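RNA from 9 cultures, 3 in each of 3 media, was sequenced from strand-specific libraries, per the labels' protocols. The authors deposited 1 table per library with FPKM per gene and its interval from Cufflinks, per the file headers. Alignment with TopHat2 2.0.12 and quantification with Cufflinks 2.1.1 on GRCh37 are listed in the submitters' processing notes. Their options and masking are not given there. Of 90 library values of the 10 genes, 7 lay above their own Cufflinks interval (DLX5, DLX6 and MSX2 in F_FSB replicate 3, MSX2 in all F libraries and BARX1 in F replicate 3).

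Loci with a status other than OK in any library (95) were left out, and genes with at least 1 FPKM in at least 3 of 9 libraries were tested. A single linear model of the 3 group means was fitted to log2(FPKM + 1) of all 9 libraries (limma 3.58.1 with a trended prior, under R 4.3.3). P-values were two-sided and adjusted by Benjamini-Hochberg (BH) over 13216 genes, with a threshold of 0.05. A check on simulated data drew independent normal values, with far fewer genes changed than were called here in FSB against F. It therefore does not cover data with so many changes or with single outlying libraries. Changes on this scale understate those of low genes. Relative depth was read from the lowest values of a few single-exon genes and is rough. Starts in the tables count from 0 and are given here 1-based. Homeoboxes were read from GRCh37 with GENCODE 44 models. Alternatives covered the pseudocount, the filter, scaling, the groups in the fit, a block by culture number and leaving out each library.

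The 10 genes and all gene lists were chosen with earlier results of these data known. Named genes were the 10 homeobox genes, up to 4 genes per list and comparison with the smallest adjusted p past 0.05, markers needed to state a level, the genes most alike, the nearest tested neighbours and antisense genes; other names are given as chosen after their values were seen. A few items are not reported here.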

Additional observations from a re-analysis of the deposited data

How the results depend on the processing

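Of 447 results for single homeobox genes under alternative settings, 417 kept their direction and their side of the threshold, 6 lost a call, 5 gained one and 19 changed sign without passing in either. The calls of DLX1 and MSX2 in FSB against F held under every alternative run. That of LHX8 held under each alternative that tested it, since without F replicate 1, 2 or 3 it no longer passed the filter and 7 genes were tested. That of BARX1 was lost under 3 alternatives, named above. The number of the 10 genes called in FSB against F was 3 to 6 when a library was left out, and 0 in every such fit in F_FSB against F. In F_FSB against FSB it was 0 to 1, and without F_FSB replicate 3 the 1 gene called was MSX1, not DLX1. MSX1 passed the filter in that fit only with the FSB libraries counted. The labels do not say whether a culture number marks a shared culture. Correlations of deviations from the group mean between same-numbered libraries ran from -0.14 to 0.29, and with so few libraries they cannot exclude a pairing. The highest was between F replicate 1 and F_FSB replicate 1. Their median absolute difference on the log2(FPKM + 1) scale was 0.125, against 0.163 to 0.183 between either and the libraries of its own group. Whether they share a culture was not tested. With culture number as a replicate block, the count in F_FSB against FSB was 0 (DLX1, limma, BH-adjusted p = 0.0515).

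Over all tested genes, leaving out a library gave 3629 to 5780 calls in FSB against F, against 5536 with all libraries, with the lowest count without FSB replicate 2. In F_FSB against FSB it gave 3817 to 5424, against 5527. In F_FSB against F it gave 0 to 74, against 1, with the highest count without F replicate 1. In the same comparison no gene was called with no filter on low values, with the replicate block, or with FSB replicates 1 and 2 averaged as 1 library, an alternative chosen after seeing the data; each count was 0.

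The changes of sign were these, on the log2(FPKM + 1) scale unless a pseudocount is named. For F_FSB minus F, DLX6 was 0.02 with all libraries, -1.32 and -2.58 with pseudocounts of 0.1 and 0.01, -0.016 after quantile normalization, -0.011 after scaling to the same sum, and -0.065, -0.33 and -1.69 without F replicate 1, F replicate 3 and F_FSB replicate 3. DLX2 was 0.13 without F replicate 1 and 0.021 without F_FSB replicate 3. MSX1 was 0.45 without F replicate 3, and 0.13 and 0.14 without F_FSB replicates 1 and 2. DLX5 was 0.40 and 0.50 without F_FSB replicates 1 and 2. For FSB minus F, DLX2 was -0.14 without F replicate 2. For F_FSB minus FSB, BARX1 was 0.082 without F_FSB replicate 1 or 2, and without F_FSB replicate 3 DLX5 was -0.13 and DLX6 -0.027. The ranges over fits without 1 library were -0.14 to 0.43 for DLX2 in FSB minus F, -0.98 to 0.082 for BARX1, -0.13 to 3.00 for DLX5 and -0.027 to 2.60 for DLX6 in F_FSB minus FSB, and -0.44 to 0.13 for DLX2, -2.64 to 0.50 for DLX5 and -1.69 to 0.93 for DLX6 in F_FSB minus F. The cause of these changes was not tested. DLX3 and DLX4, tested without the filter, passed in no comparison (limma, BH-adjusted p = 0.258 to 0.964). Absolute depth is unknown, and values below 1 FPKM, most of all in the shallower F_FSB replicate 2, are the least precise.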
